A study of Homo sapiens with 12 samples.

Results

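miR-21 is made from 1 hairpin gene, MIR21, whose 2 arms were listed as separate mature miRNAs, hsa-miR-21-5p and hsa-miR-21-3p (below without the species prefix). These 2 entries were taken by name from the 153 miRNAs listed in either of the 2 deposited tables, 1 table per cell population, and both arms were listed in both. The small RNA came from exosomes, vesicles that cells release, of the established breast cancer line MDA-MB-231. The 4 groups of 3 libraries were untreated parental cells, parental cells given 56 µM cisplatin for 48 h, untreated sorted CSC-like cells, and sorted CSC-like cells under that same treatment. CSC commonly stands for cancer stem cell. Serum used for culture had been depleted of exosomes in all groups. Cisplatin forms platinum crosslinks in DNA. All groups come from 1 cell line. Neither the sort markers of the CSC-like cells nor the origin of replicates in separate cultures is given in the sources used here, so the spread behind the p-values is that between libraries and may be technical.

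A miRNA hairpin is cut by Drosha and then Dicer into a short duplex. The guide strand is kept by an Argonaute protein and represses mRNAs that pair with its seed, bases 2 to 8, while the passenger strand is mostly degraded. For miR-21 the guide is miR-21-5p, which is abundant in many tumours and represses growth-restraining genes such as PDCD4, and the passenger is miR-21-3p. Transcription of MIR21 is known to respond to STAT3, AP-1 and NF-kB.

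The sequences are shown because they define which reads belong to which arm. The capitals mark the seed of each mature miRNA, as deposited, and the mature arms within the hairpin, from RefSeq (GRCh38.p14). For comparison, miR-590-5p and miR-3591-3p are the other entries of the RefSeq table used here that carry the seed of miR-21-5p and of miR-21-3p.
miR-21-5p: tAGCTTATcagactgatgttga
miR-21-3p: cAACACCAgtcgatgggctgt
MIR21 hairpin: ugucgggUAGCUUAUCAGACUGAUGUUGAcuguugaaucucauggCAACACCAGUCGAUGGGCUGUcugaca
miR-590-5p: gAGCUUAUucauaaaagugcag
miR-3591-3p: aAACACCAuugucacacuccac

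The hairpin lies on the plus strand at chr17:59841266-59841337, with miR-21-5p at chr17:59841273-59841294 and miR-21-3p at chr17:59841311-59841331. Each arm occurred once in the hairpin, and 1 of the 2 arms, miR-21-5p, had a RefSeq mature entry. In GENCODE 29 (GRCh38) the hairpin overlaps 1 transcript of VMP1, a gene for a membrane protein of autophagy, inside an exon of a retained-intron transcript and in no annotated UTR. miR-21-5p is 22 bases long, starts with U and has a GC content of 36.4%, whereas miR-21-3p is 21 bases long, starts with C and has a GC content of 57.1%. In the structure predicted by RNAfold the arms form 19 base pairs with each other, 16 Watson-Crick and 3 wobble. Among the 153 listed miRNAs, 0 others shared a seed with either arm, and neither miR-590-5p nor miR-3591-3p was listed.

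Depth was low, with 2648 to 6622 listed counts per parental library and 429 to 2522 per CSC-like library. No miRNA was listed without a count in both groups of its table, so counts in 1 group alone are not seen. For replicates 2 and 3 of the cisplatin-treated CSC-like group a chi-square test found no difference beyond sampling noise (p = 0.212), unlike for the other pairs of that group. They were counted as 1 sample, which leaves n = 2, with their mean share, or their summed counts in the edgeR fits. Replicates 2 and 3 of the cisplatin-treated parental group were also close, with a chi-square of 1.48 per degree of freedom (chi-square p = 0.0123). The other pairs of that parental group had 16.1 and 16.4. As its p was under 0.05, the close parental pair was kept as separate samples. Of 6 epithelial miRNAs 2 were listed, miR-200b-3p and miR-429, with 0 to 0.373% of the counts of a library, and of 6 blood cell and serum miRNAs 3 were listed per table, with 0 to 0.466%. These marker lists had no tested member.

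In 10 of 12 libraries miR-21-5p had the highest count of all miRNAs. It had rank 2 in untreated parental replicate 3 and rank 3 in replicate 1, where miR-100-5p, a miRNA known to repress mTOR, came first. Counts are given as shares of all listed miRNA counts of a library, so a share can move because another miRNA moved. Neither the number of vesicles nor the RNA per vesicle can be read from shares.

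In untreated parental exosomes miR-21-5p was counted 237, 586 and 350 times in replicates 1, 2 and 3. These counts are 6.72% (exact Clopper-Pearson 95% interval 5.92 to 7.6), 22.1% (20.6 to 23.8) and 8.74% (7.88 to 9.66) of listed counts. Replicate 2 was high and its interval lay wholly above those of the other 2 libraries. It was also the shallowest of the 3.

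After cisplatin, parental libraries held 1891, 1208 and 1299 counts of miR-21-5p, or 28.6% (27.5 to 29.7), 34.01% (32.5 to 35.6) and 33.1% (31.6 to 34.6). All 3 treated libraries lay above all 3 untreated ones.

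Untreated CSC-like libraries held 391, 524 and 978 counts, or 25.6% (23.4 to 27.9), 24.1% (22.3 to 25.98) and 38.8% (36.9 to 40.7). Replicate 3 was the high one. Cisplatin-treated CSC-like libraries held 104, 722 and 564 counts, or 24.2% (20.3 to 28.6), 38.5% (36.3 to 40.7) and 35.8% (33.4 to 38.2). Replicate 1, with 429 counts in all, was the low one, and both CSC-like groups covered much the same range.

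**Figure D1:**
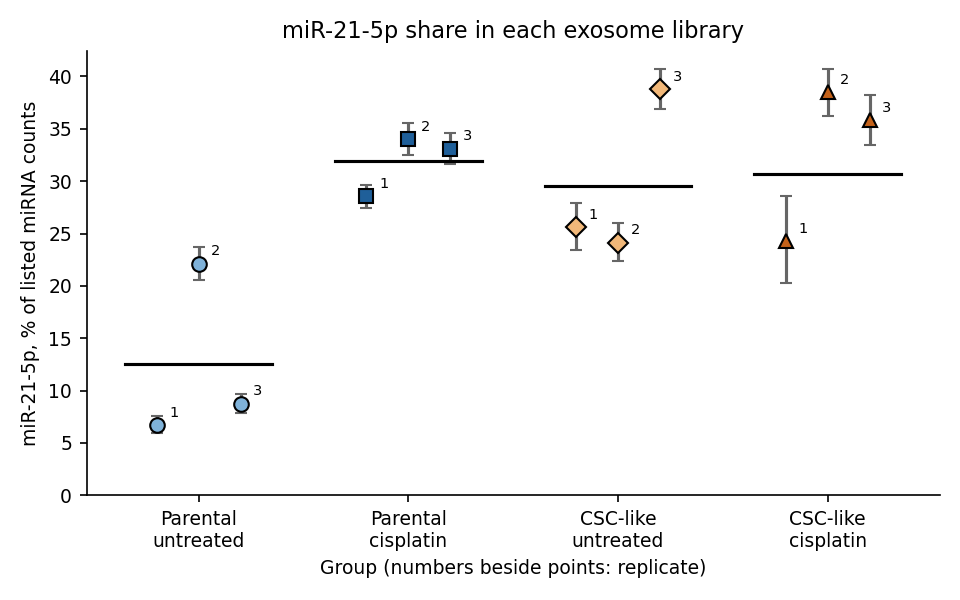
Share of miR-21-5p in the listed miRNA counts (%) of each library, by group, with exact 95% intervals that cover counting error only; lines are group means, with the agreeing pair of cisplatin-treated CSC-like libraries averaged first. The untreated parental libraries, at 6.72%, 22.1% and 8.74%, lie below the other 9, which span 24.1% to 38.8%.

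Ordered by group mean, the share was 12.5% ± 8.38 (SD, n = 3) in untreated parental, 29.5% ± 8.06 (SD, n = 3) in untreated CSC-like, 30.7% ± 9.12 (SD, n = 2) in cisplatin-treated CSC-like and 31.9% ± 2.92 (SD, n = 3) in cisplatin-treated parental exosomes. The last 3 means, neighbours in this order, differ by less than the SD of either CSC-like group. Untreated parental and untreated CSC-like exosomes, the other neighbours, did not overlap.

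The first comparison asked whether exosomal miR-21 differed after cisplatin in parental cells. The difference in mean share of miR-21-5p was 19.4 percentage points (two-sided exact permutation p = 0.1, the smallest that 3 samples against 3 allow). The groups did not overlap for miR-21-5p, as for 16.2% of the 37 tested miRNAs. In edgeR's quasi-likelihood test with Benjamini-Hochberg adjustment the log2 fold change was 1.02 (SE 0.66, 95% interval -0.34 to 2.38, unadjusted p = 0.135, adjusted p = 0.333), so miR-21-5p did not pass. The test called 5.41% of the 37 miRNAs, and the median log2 fold change of all of them was -0.27. With library totals in place of TMM scaling (trimmed mean of M-values) that median was 0.01, and miR-21-5p had a log2 fold change of 1.35 (unadjusted p = 0.0468, adjusted p = 0.247, edgeR).

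The result depended on untreated parental replicate 2. Without it miR-21-5p passed (edgeR adjusted p = 0.000694), at a log2 fold change of 1.72 (SE 0.34), and 18.6% of the 43 miRNAs tested were called, against 5.41% with all libraries. Without untreated replicate 1 it was 0.44 (adjusted p = 0.781) and without untreated replicate 3 it was 0.63 (adjusted p = 0.955). In the authors' deposited table the fold change of weighted proportions was 2.49 and Baggerley's p was 0.000122, the fourth lowest of 137. Adjusted over those 137, the p of the authors' deposited table became 0.00418, and 4.38% of its miRNAs were under 0.05.

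In CSC-like exosomes the same comparison gave a difference of 1.18 percentage points (two-sided exact permutation p = 0.9, n = 2 and 3, smallest possible 0.1). The groups overlapped, whereas 13.8% of the 29 tested miRNAs had groups that did not. In edgeR the fitted log2 fold change of miR-21-5p was 0.02 (SE 0.59, 95% interval -1.16 to 1.19, adjusted p = 0.99), and 3.45% of the 29 were called. The interval leaves room for a change of about the size fitted in parental exosomes, so a difference was not detectable with these libraries. In the authors' deposited table the fold change was 1.12 (p = 0.588), and 3.51% of its 114 miRNAs had an adjusted p under 0.05.

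The response in CSC-like exosomes was then set against that in parental exosomes as an interaction term over the 4 groups. For miR-21-5p the difference between the log2 fold changes was -0.99 (SE 0.82, 95% interval -2.59 to 0.62, adjusted p = 0.836, edgeR), and 2.08% of the 48 tested miRNAs were called. The 2 responses were therefore not shown to differ. The median difference over the 48 miRNAs was 0.36 with TMM and -0.28 with library totals, where miR-21-5p had -1.29 (adjusted p = 0.564, edgeR). Over left-out libraries the difference ran from -1.67 without untreated parental replicate 2 (adjusted p = 0.102, edgeR) to -0.60 without untreated CSC-like replicate 3 (adjusted p = 0.911, edgeR).

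Untreated CSC-like exosomes were compared with untreated parental ones, which are the same libraries that served as controls above. Each population has its own deposited table, and the depths of the 2 tables do not overlap. Population can therefore not be told apart from table or depth here, between the treated groups or in the interaction. The mean share of miR-21-5p was 16.98 percentage points higher in CSC-like exosomes (two-sided exact permutation p = 0.1, the smallest possible). The groups did not overlap for miR-21-5p, as for 13.3% of the 30 tested miRNAs. In edgeR miR-21-5p had a log2 fold change of 1.02 (SE 0.76, 95% interval -0.49 to 2.54, adjusted p = 0.515), against a median of -0.32 over the 30 miRNAs, of which 3.33% were called. With library totals the median was 0.14 and miR-21-5p had 1.24 (adjusted p = 0.344, edgeR). It did not pass, nor did it without untreated parental replicate 2 (2.01, adjusted p = 0.0698). Without untreated CSC-like replicate 3 it was 0.13 (adjusted p = 0.994).

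Between the cisplatin-treated groups the mean share of miR-21-5p differed by -1.2 percentage points, CSC-like minus parental (two-sided exact permutation p = 0.8, n = 2 and 3), and the groups overlapped, unlike those of 23.8% of the 42 tested miRNAs. In edgeR miR-21-5p had a log2 fold change of 0.1 (SE 0.32, 95% interval -0.58 to 0.77, adjusted p = 0.9), and 2.38% of the 42 were called. This was the narrowest interval of the 5 comparisons. The sign of so small a value turned with library totals (-0.05) and with several other settings.

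**Figure D2:**
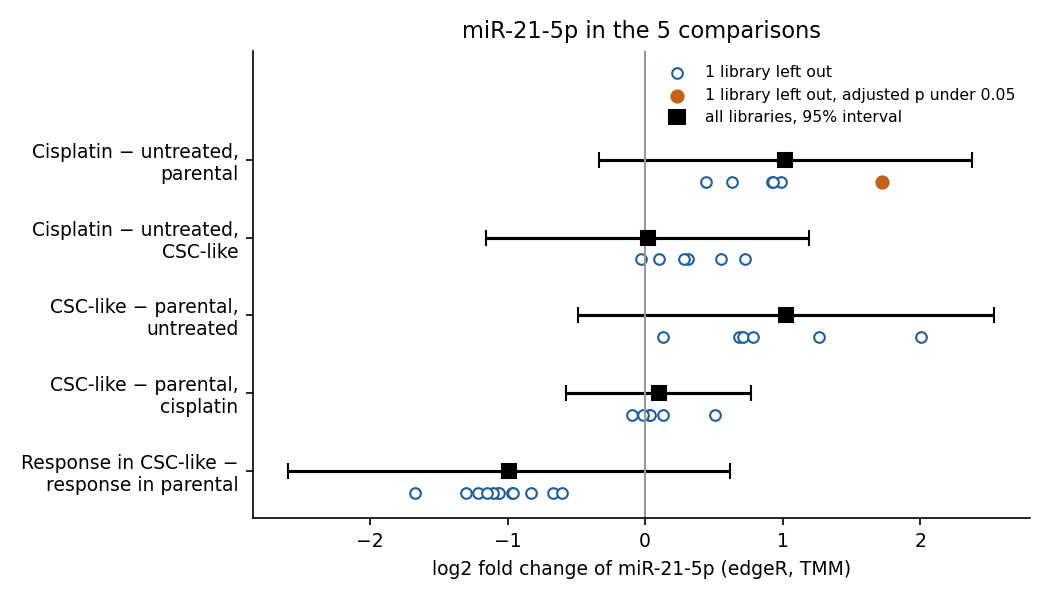
log2 fold change of miR-21-5p in the 5 comparisons (edgeR, TMM); squares are values with all libraries and bars their 95% intervals, and circles are values with 1 library left out. All 5 intervals cross 0, and 1 circle, cisplatin against untreated parental without untreated replicate 2 (1.72), has an adjusted p under 0.05.

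Apart from miR-21-5p itself, miR-100-5p was the miRNA with the most counts in all 12 libraries. Its share was 51.1%, 21.4% and 44.5% in untreated parental replicates 1, 2 and 3, against 21.6%, 15.99% and 16.4% after cisplatin. It was 17.2%, 23.5% and 13.05% in untreated and 18.9%, 15.98% and 16.3% in cisplatin-treated CSC-like libraries. The 2 libraries lowest in miR-21-5p were thus the highest in miR-100-5p. In edgeR miR-100-5p passed in no comparison. Its log2 fold change was -1.43 with cisplatin in parental exosomes (adjusted p = 0.139, edgeR). It was -1.81 in untreated CSC-like against untreated parental exosomes (adjusted p = 0.0726, edgeR).

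The ratio of miR-21-5p to miR-100-5p counts does not depend on the other miRNAs of a library. It was 0.13, 1.04 and 0.2 in the untreated parental libraries and 1.32, 2.13 and 2.02 in the treated ones. In CSC-like libraries it was 1.49, 1.03 and 2.97 untreated and 1.28, 2.41 and 2.19 treated. Untreated parental replicates 1 and 3 were the only libraries in which miR-100-5p exceeded miR-21-5p. Both miRNAs together made up 42.8% to 57.8% of every library, so the sum varied less than either share did.

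**Figure D3:**
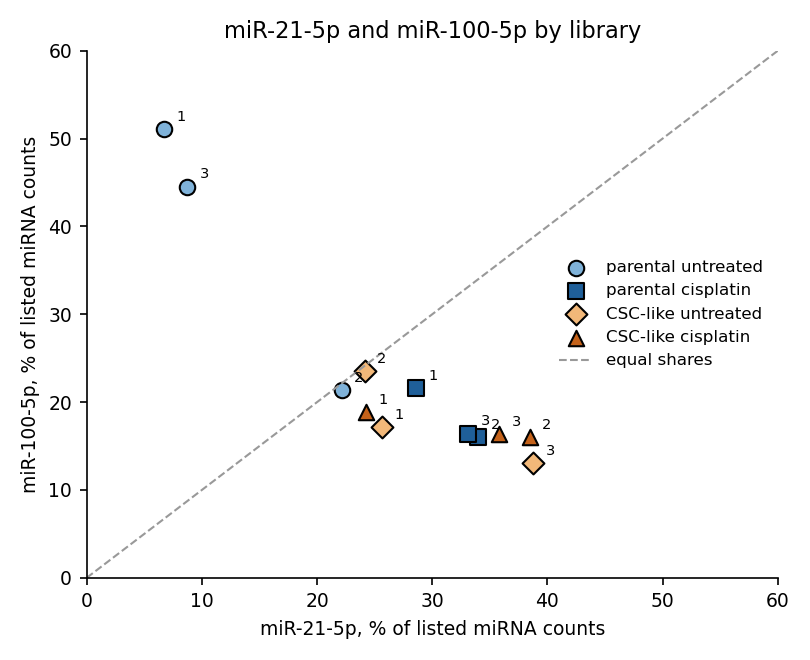
Share of miR-100-5p (vertical axis) against share of miR-21-5p (horizontal axis), both in % of listed miRNA counts, in the 12 libraries, numbered by replicate, with a dashed line of equal shares. Untreated parental replicates 1 and 3 lie far above the line, at 51.1% and 44.5% miR-100-5p, and the other 10 libraries lie below it.

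With miR-100-5p taken out of the totals, miR-21-5p made up 13.7%, 28.1% and 15.8% of the remaining counts in untreated parental libraries and 36.4%, 40.5% and 39.6% in treated ones. The 2 groups did not overlap on this scale either. How many of the tested miRNAs had groups that did not overlap on it was not counted. Entries that overlap other structured RNAs, such as miR-1246, also varied between these libraries. Of the 16 on that list, 9 were listed in each table, and together they made up 19.9%, 3.74% and 13.7% of untreated and 16.4%, 5.69% and 6.01% of treated parental counts. In CSC-like exosomes they made up 9.17%, 23.2% and 7.26% untreated and 25.9%, 7.46% and 8.95% treated. In each of the 4 groups the library with the highest such share had the lowest share of miR-21-5p. Without these entries in the totals miR-21-5p made up 8.39%, 23% and 10.1% of untreated and 34.1%, 36.1% and 35.2% of treated parental counts, so the difference was of much the same size. Of the 6 tested entries none passed for cisplatin in parental exosomes or between the untreated populations (2 and 1 had an unadjusted p under 0.05, as did 16.2% of the 37 and 16.7% of the 30 tested miRNAs, edgeR), and miR-3135b was the 1 entry called, as higher, in each of the other 3.

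Likeness to miR-21-5p was measured over 11 samples by Pearson's r of log2 CPM (0.5 added to each count), for the 31 other miRNAs that both tables list with a mean of at least 10 counts per library. All values share each library's total, so they are descriptions. The highest were let-7i-5p (r = 0.78), a let-7 member linked to repression of RAS, miR-30b-5p (r = 0.76) and miR-27a-3p (r = 0.72). let-7i-5p ranged from 0.425% of counts in untreated parental replicate 1 to 15.5% in replicate 2 of the same group. The lowest were miR-100-5p (r = -0.98), miR-7704 (r = -0.80) and miR-99b-5p (r = -0.64), which shares a family with miR-100-5p. Untreated parental replicates 1 and 3 lay farthest from the median of miR-21-5p. Without these 2 samples r was -0.82 for miR-100-5p and -0.67 for miR-7704, but 0.06 for let-7i-5p, 0.33 for miR-30b-5p, 0.37 for miR-27a-3p and 0.17 for miR-99b-5p, so that these 4 rested on them.

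miRNAs linked to the same regulators as MIR21 were listed in part, 7 of 9 for parental and 6 of 9 for CSC-like exosomes. This list leaves out miR-21 itself. miR-146a-5p, which dampens NF-kB signalling, and miR-221-3p, which represses the cell cycle inhibitor p27, had enough counts to be tested within each table. Neither passed in any comparison, and 0 of the 5 members tested for the interaction passed either (edgeR). At an unadjusted p under 0.05 the count was 0 throughout, except for miR-221-3p between the treated populations (log2 fold change 2.09, adjusted p = 0.392, edgeR). Of all miRNAs tested, 16.2% for cisplatin in parental and 6.9% in CSC-like exosomes had such a p, 16.7% between the untreated and 4.76% between the treated populations, and 10.4% for the interaction. miR-146a-5p had log2 fold changes of -0.37 with cisplatin in parental and -0.72 in CSC-like exosomes, and miR-221-3p of -0.55 and 1.5 (adjusted p = 0.613, edgeR). The listed members made up 5.7% ± 4.43 of untreated and 5.28% ± 2.83 of treated parental counts (SD, n = 3 each). In CSC-like exosomes the values were 7.26% ± 2.1 (SD, n = 3) and 7.68% ± 1.34 (SD, n = 2). miR-155-5p and miR-222-5p were not listed. Of 9 p53-responsive miRNAs 3 were listed in parental exosomes and 2 in CSC-like exosomes, with at most 7 counts in a library, and none had enough counts to be tested. miR-34a-5p was not among those listed.

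The passenger arm was near the limit of detection. miR-21-3p was counted 0, 1 and 0 times in untreated and 2, 4 and 1 times in cisplatin-treated parental replicates 1, 2 and 3. It was counted 0, 0 and 1 times in untreated and 0, 0 and 4 times in cisplatin-treated CSC-like replicates. It was thus seen in 6 of the 12 libraries, 3 of them the treated parental ones, with 13 counts in all beside 8854 of miR-21-5p.

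Over all libraries miR-21-3p made up 0.147% of the counts of both arms (exact 95% interval 0.0781 to 0.251, counting error only), or 1 count per 681 of the guide. The share was 0.143% (0.0619 to 0.282) for parental and 0.152% (0.0494 to 0.355) for CSC-like exosomes, treated and untreated libraries summed. These intervals overlap, but they rest on 8 and 5 passenger counts. They are too wide to show that the arm balance of the populations is the same. The passenger arm had just 1 count in each untreated group, the fewest that any listed entry had in a group.

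By group, miR-21-3p as a share of both arms was 1 of 1174 counts (0.0852%, exact 95% interval 0.00216 to 0.474) in untreated and 7 of 4405 (0.159%, 0.0639 to 0.327) in treated parental exosomes. It was 1 of 1894 (0.0528%, 0.00134 to 0.294) in untreated and 4 of 1394 (0.287%, 0.0782 to 0.733) in treated CSC-like exosomes. All 4 intervals overlap.

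The 0 counts say little where few miR-21 reads were present. Taken as 3 counts of the total, a simpler bound than the exact intervals plotted, a count of 0 allows an arm share of up to 2.88% in cisplatin-treated CSC-like replicate 1, with 104 miR-21 counts, and up to 1.27% in untreated parental replicate 1, with 237. The tightest such limit was 0.416% in cisplatin-treated CSC-like replicate 2, with 722. Its partner, replicate 3, held 4 of 568 counts, or 0.704% (exact 95% interval 0.192 to 1.79), the highest arm share of any library. The chi-square test of this pair covered the 37 miRNAs with at least 10 counts in it, and miR-21-3p was not among them.

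**Figure D4:**
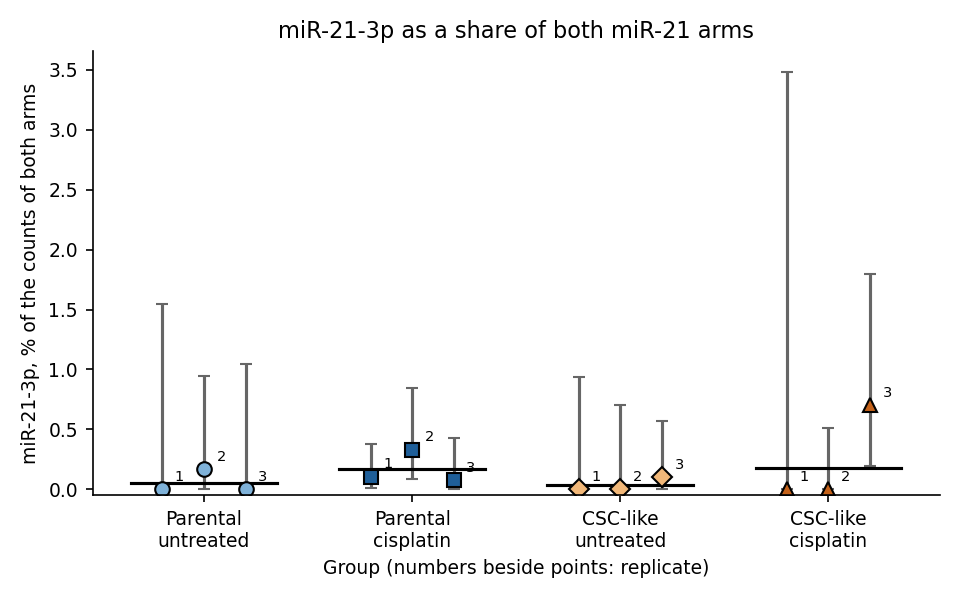
miR-21-3p as a share of the counts of both miR-21 arms (%) in each library, with exact 95% intervals that cover counting error only; lines are group means, with the agreeing pair of cisplatin-treated CSC-like libraries averaged first. The highest point is cisplatin-treated CSC-like replicate 3 at 0.704%, 6 libraries are at 0, and the intervals of all 4 groups overlap.

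Averaged over parental samples, the arm share was 0.0568% ± 0.0984 (SD, n = 3) without and 0.171% ± 0.139 (SD, n = 3) with cisplatin (two-sided exact permutation p = 0.3). The difference of 0.114 percentage points ran from 0.0345 without cisplatin-treated replicate 2 to 0.171 without untreated replicate 2. For CSC-like samples it was 0.034% ± 0.059 (SD, n = 3) without and 0.176% ± 0.249 (SD, n = 2) with cisplatin (two-sided exact permutation p = 0.7). CSC-like and parental exosomes did not differ past the test either, untreated (exact permutation p = 1) or treated (exact permutation p = 1). In each of these 4 comparisons the groups overlapped.

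Relative to all listed counts, miR-21-3p was 5.05 times as frequent with cisplatin in parental exosomes (7 counts against 1, exact 95% interval 0.649 to 228). In CSC-like exosomes the ratio was 6.41 (4 counts against 1, 0.634 to 316). Both intervals include 1 and cover counting error only. Per miR-21 count the ratio was 1.87 in parental (0.24 to 84.1) and 5.43 in CSC-like exosomes (0.538 to 268).

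miR-21-3p did not reach the count filter of edgeR in any comparison. Without a filter its adjusted p was 0.935 for cisplatin in parental exosomes, where 0.0% of the 137 miRNAs were called and 7 had an unadjusted p under 0.05, and 0.995 in CSC-like exosomes, where 0.877% of the 114 were called (edgeR). Between the populations the adjusted p was 0.99 untreated and 0.912 after cisplatin, with 1.02% of 98 miRNAs called in each. Its interaction term had an adjusted p of 0.954, where the same fit also called 1.02%. In the authors' deposited table the fold changes were 5.71 (p = 0.0289, or 0.332 when adjusted over its miRNAs) for parental and 6.01 (p = 0.411) for CSC-like exosomes.

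Both arms were listed for 12 hairpins of the parental and 4 of the CSC-like table. The less abundant arm held from 0.985% (miR-221) to 50% (miR-425, 3 counts on each arm) of the counts of the 11 other parental hairpins and from 4.46% (miR-30a) to 15.8% (miR-423) of the 3 other CSC-like ones. Another 113 parental and 106 CSC-like entries had no second arm listed and could not be compared. miR-100-5p was among them, with 1802 counts in untreated parental replicate 1, so a rare second arm was not shown to be particular to miR-21. Among hairpins with both arms listed, miR-21, at 0.143% and 0.152%, had the lowest value in each table. The others of this kind had at most 203 counts, however. No arm was listed with fewer than 2 counts in a table, which for them is a larger share than that of miR-21-3p.

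Some of the other hairpins with both arms listed lay above the lowest share they could have. miR-423 held 27 of 144 parental counts on its less abundant arm, 18.8% (exact 95% interval 12.7 to 26.1), and miR-99b 20 of 180, 11.1% (6.92 to 16.6). In the CSC-like table miR-30a held 9 of 202, 4.46% (2.06 to 8.29). These 3 intervals lie above those of miR-21 in the same tables, 0.0619% to 0.282% and 0.0494% to 0.355%. The interval of miR-221 in the parental table, 0.12% to 3.51%, overlaps that of miR-21. A hairpin enters only where both its arms were listed, which held for miR-99b in the parental and miR-30a in the CSC-like table alone.

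**Figure D5:**
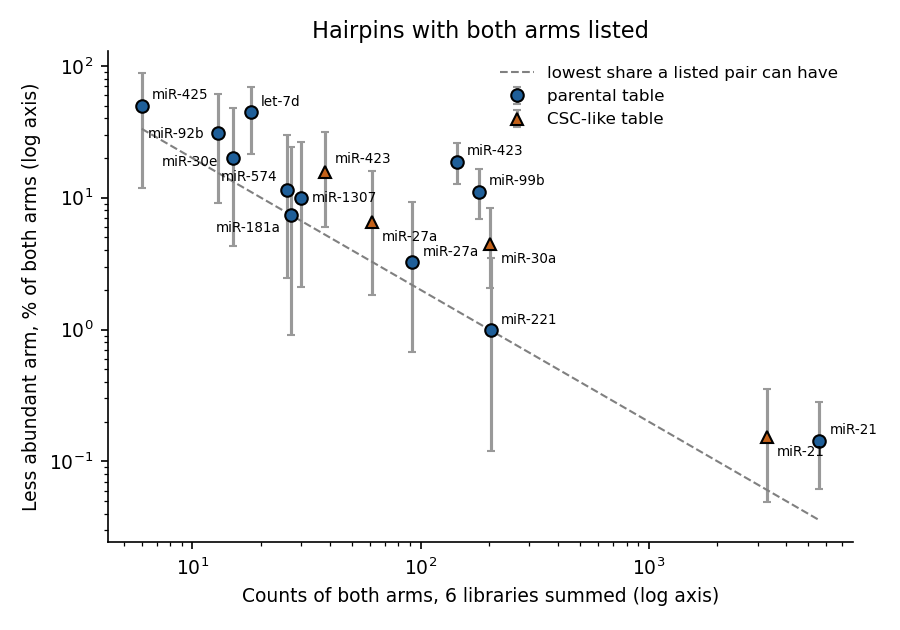
Share of the less abundant arm in the counts of both arms (%, log axis) against the counts of both arms summed over the 6 libraries of a table (log axis), for the hairpins with both arms listed; bars are exact 95% intervals, counting error only. The dashed line is the share that 2 counts give, the fewest with a count in both groups; miR-21 is at the lower right, at 0.143% and 0.152%, and miR-221 lies on the line at 0.985%.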

How the data were processed

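Per the file headers, the deposited values are whole read counts per mature miRNA and library, not transformed. The deposited tables also give a score (the authors' fold change of weighted proportions, with a minus sign for a fall) and an unadjusted p-value of Baggerley's test, per the file headers. Reads were handled with cutadapt and FastQC, per the submitters' processing notes. The aligner, build and miRNA release are not stated in the labels or headers. A single line of each file was not analysed here.

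Counts were tested with edgeR 4.0.16 (R 4.3.3), using filterByExpr (minimum count 10, minimum total 15), TMM, listed totals as library sizes, quasi-likelihood tests and a Benjamini-Hochberg threshold of 0.05 over all tested miRNAs. Comparisons across tables used the 98 miRNAs listed in both. The filtered fits were run on simulated data, with changes larger than those fitted for miR-21-5p with all libraries. The unfiltered fits of miR-21-3p were not covered by that run. Shares were compared by two-sided exact permutation over samples (Python 3.11.15). Intervals and floors (3 counts) cover counting error only. Replicates were compared over miRNAs with at least 10 counts in a pair. The hairpin was folded with RNAfold 2.7.2. DESeq2 1.42.0, other scalings, filters and denominators, a replicate block and leaving out each library were alternatives. Named miRNAs were the arms, each library's most abundant other miRNA, the 3 most and 3 least like miR-21-5p, hairpins with both arms listed, and lists of miRNAs with shared regulators and of markers. Members and lists were chosen with earlier results of these data known.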

Additional observations from a re-analysis of the deposited data

How the results depend on the processing

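Of 194 alternative values for 18 miR-21 results, 165 kept their direction and side of the threshold, 28 turned sign and 1 newly passed. These include the permutation tests of the share and the arm share, whose p could not go below 0.1. Their side of the threshold was thus fixed by the sample sizes, and only their direction could change. The arm shares from the summed counts of each group have no p. They are among the 165 by their direction and closeness to the reported value. The cause of the changes was not tested. The new call was miR-21-5p with cisplatin in parental exosomes, with log2 fold changes of 0.44 to 1.72 over left-out libraries. For miR-21-5p with cisplatin in CSC-like exosomes the log2 fold change was -0.0066 with no filter and -0.059 with at least 15 counts, and -0.028 to 0.72 over left-out libraries. Between the treated populations it was -0.049 with library totals, -0.17 with no filter, -0.098 with at least 15 counts, -0.026 with all libraries apart, -0.084 in the model over 4 groups, and -0.095 to 0.51 over left-out libraries. The difference in its share there was 1.44 percentage points without structured RNA entries, 0.949 with libraries apart and -2.87 to 5.25 over left-out libraries, and with cisplatin in CSC-like exosomes -1.51 to 7.63. Over left-out libraries the difference in arm share was 0.0345 to 0.171 percentage points with cisplatin in parental exosomes, -0.0340 to 0.318 with cisplatin in CSC-like exosomes, -0.0568 to 0.0340 between the untreated and -0.171 to 0.181 between the treated populations. The log2 fold change of miR-21-3p was then -1.68 to 4.09 with cisplatin in CSC-like exosomes, -1.85 to 2.08 between the untreated and -3.89 to 1.54 between the treated populations, and -3.89 to 2.76 for the interaction. With at least 15 counts as the filter miR-21-3p was not tested in any comparison.

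Deviations of same-numbered libraries from their group means had correlations of -0.69 to 0.53, positive for some numbers and negative for others. Whether the numbers pair the libraries was not tested. With a replicate block and all libraries apart, miR-21-5p had log2 fold changes of 1.24 and 0.47 with cisplatin in parental and CSC-like exosomes, 0.95 and -0.047 between the untreated and treated populations, and -1.13 for the interaction, none of them called. The number of miRNAs called ranged over alternatives from 0 to 8 with cisplatin in parental exosomes (2 as reported), 0 to 1 in CSC-like exosomes (1), 0 to 5 and 1 to 2 between the untreated and treated populations (1 each) and 0 to 2 for the interaction (1). Depth limits the passenger arm, which has a single count in 3 of the 6 libraries that show it.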
